A study of Homo sapiens with 16 samples.

Results

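A set of 40 genes moved in opposite directions in Ishikawa and T-47D cells after 8 h of estrogen, of 26364 genes counted in both cell lines. The members were chosen on the 0 h and 8 h libraries alone, apart from a floor on the mean level. For each gene the counts were divided by the library total and multiplied by 1e6 to give CPM, and the 8 h change was the log2 ratio of the mean CPM at 8 h to the mean CPM at 0 h, with 0.5 CPM added to both. A member had a mean of at least 2 CPM over the 8 libraries of each line, which 11089 genes reached, a change of at least 0.4 in one line and at most -0.4 in the other, and both 8 h replicates beyond both 0 h replicates in each line. These criteria chose 27 genes that were higher in Ishikawa cells and lower in T-47D cells, which is 0.243% of the genes that reached the floor, and 13 genes that were lower in Ishikawa cells and higher in T-47D cells, which is 0.117%. With the same limits, 115 genes were higher in both lines and 153 were lower in both. Because the 8 h change chose the members, it is given here as a description and is not tested.

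Ishikawa cells come from a human endometrial adenocarcinoma, and T-47D cells from a breast carcinoma. Both were held in medium without phenol red, with charcoal-dextran stripped serum, for 3 days per the labels, and then received 10 nM 17β-estradiol (E2) for 0, 2, 4 or 8 h; the 0 h cells had the vehicle and the same deprivation. The methods text gives a longer deprivation than the labels. Each line and time point had 2 replicates, which gave 16 bulk RNA-seq libraries from poly(A) RNA, and no source used here says whether replicates were separate cultures. The p-values below measure only the spread between these libraries, which may be technical, and each tissue is represented by 1 established line, so that a difference between the lines cannot be told apart from any other difference between the cultures.

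Estrogen enters the cell and binds estrogen receptor alpha, a ligand-activated transcription factor that recruits coactivators mostly at distal enhancers. In endometrial and breast epithelium it drives proliferation and induces many genes, while other genes fall in the same hours. Receptor binding sites differ widely between cell types, because other transcription factors open different chromatin in each. Since RNA was measured, a change in level can come from synthesis or from decay.

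Library totals ranged from 41177912 to 58918642 counts in Ishikawa cells and from 41223813 to 64148903 in T-47D cells. Between 71.2% and 74.6% of a library's counts from 1 to 10 were even, so a count need not stand for 1 fragment. The lines carried their defining markers. PAX8, a Müllerian transcription factor, lay between 189 and 334 CPM in Ishikawa cells and at most at 0.049 CPM in T-47D cells, and GATA3, a luminal breast factor, lay between 995 and 1204 CPM in T-47D cells and at most at 0.09 CPM in Ishikawa cells. FOXA2 in Ishikawa cells, and ANKRD30A in T-47D cells, were at or near 0. ESR1, which encodes the receptor, was at 170.4 to 249 CPM in the Ishikawa and 163 to 202 CPM in the T-47D libraries. The 8 leukocyte markers summed to 5.11 to 5.94 CPM in Ishikawa cells and to 4.40 to 5.68 CPM in T-47D cells, and the 10 fibroblast and endothelial markers to 160 to 299 CPM and 75.5 to 101 CPM, most of it COL1A1. PTPRC, PECAM1 and CDH5 were at most at 0.141 CPM in every library. In these bulk samples, fewer cells that express a gene and less RNA per cell cannot be told apart.

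The Ishikawa libraries of 4 h and 8 h stood close to each other across their labels, which touches every Ishikawa value below. Over the 40 members, the median absolute log2 difference was 0.0708 between 4 h replicate 2 and 8 h replicate 1 and 0.104 between 4 h replicate 1 and 8 h replicate 2, against 0.240 between the 4 h replicates and 0.163 between the 8 h replicates. In T-47D cells it was 0.0949 between the 4 h replicates and 0.111 between the 8 h replicates, and 0.182 to 0.308 between the time points. Over all genes that reached the floor the Ishikawa values lay closer together. The same pairs across labels were at 0.0697 and 0.0716, against 0.0812 between the 4 h replicates and 0.0776 between the 8 h replicates. The replicates 1 of 4 h and 8 h were at 0.101, and the replicates 2 at 0.0776. Over the same genes, T-47D 4 h replicate 1 and 8 h replicate 2 were at 0.0722. This was closer than the T-47D 8 h replicates, at 0.083, but not closer than the 4 h replicates, at 0.0557. The other T-47D pairs across time points lay between 0.0842 and 0.0982. In edgeR's quasi-likelihood test of 8 h against 4 h in Ishikawa cells, 0 of the 40 members passed, against 0.0127% of all genes tested. At an unadjusted p under 0.05 there were 2 members, GTF2H4 and TONSL, and 554 of the 15787 genes. The labels were kept as given. With the Ishikawa 4 h libraries in place of those of 8 h, the criteria chose 31 and 11 genes, of which 25 and 8 were among the 27 and the 13. With the Ishikawa 4 h and 8 h libraries as 1 group they chose 29 and 10 genes, of which 26 and 9 were among them. The part of this likeness in the 2 h to 4 h tests was not tested.

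**Figure D1:**
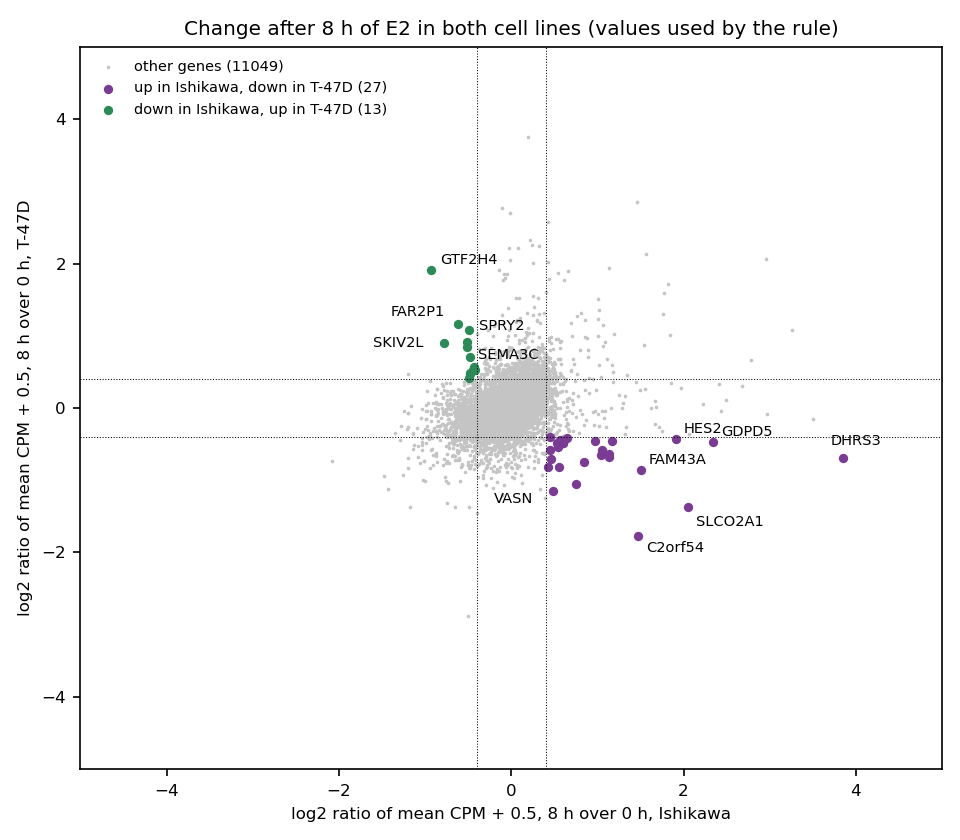
Change of each gene that reached 2 CPM in both lines, as the log2 ratio of mean CPM + 0.5 after 8 h over 0 h, in Ishikawa cells (horizontal) and T-47D cells (vertical); grey points are the other 11049 genes, colored points the members, and dotted lines the limits at 0.4 and -0.4. The 27 members at the lower right were higher in Ishikawa cells, with DHRS3 farthest out at 3.85, and the 13 at the upper left were lower in Ishikawa cells.

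The largest 8 h changes in Ishikawa cells were in DHRS3, GDPD5 and SLCO2A1, with log2 ratios of 3.85, 2.34 and 2.05, against -0.69, -0.47 and -1.37 in T-47D cells. DHRS3 reduces retinaldehyde to retinol. Giving replicate 1 first at each time point, DHRS3 was at 3.22 and 3.59 CPM before E2 in Ishikawa cells, 29.6 and 28.7 after 2 h, 58.5 and 53.3 after 4 h, and 53.7 and 57.7 after 8 h. In T-47D cells it was at 6.88 and 6.67 CPM before E2, 8.72 and 10.0 after 2 h, 6.30 and 5.48 after 4 h, and 3.99 and 4.06 after 8 h. Before E2 DHRS3 was thus lower in Ishikawa than in T-47D libraries, and from 2 h on every Ishikawa library was above every T-47D library. SLCO2A1, which carries prostaglandins into the cell, was at 15.98 and 19.6 CPM before E2 in Ishikawa cells, 27.8 and 26.3 after 2 h, 87.5 and 63.9 after 4 h, and 58.8 and 91.5 after 8 h. In T-47D cells SLCO2A1 was at 6.88 and 7.16 CPM before E2, 6.52 and 5.19 after 2 h, 4.26 and 4.08 after 4 h, and 2.51 and 2.30 after 8 h, so that its levels lay in the order of time with no overlap between time points. GDPD5, a membrane glycerophosphodiester phosphodiesterase, was at 7.77 and 10.4 CPM before E2, 17.4 and 18.9 after 2 h, 56.0 and 41.3 after 4 h, and 39.5 and 56.8 after 8 h in Ishikawa cells. In T-47D cells GDPD5 stayed between 4.60 and 5.16 CPM through 4 h and was at 3.43 and 3.69 CPM after 8 h.

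C2orf54, now named MAB21L4, had the largest value for the smaller of its changes, 1.47 in Ishikawa cells against -1.77 in T-47D cells. It was at 3.02 and 2.78 CPM before E2 and at 7.16 to 10.4 CPM in all later Ishikawa libraries. In T-47D cells C2orf54 was at 7.17 and 5.99 CPM before E2, 5.19 and 5.61 after 2 h, 3.26 and 3.68 after 4 h, and 1.85 and 1.31 after 8 h. Each later T-47D pair lay below the one before it. Its promoter, the 250 bases before a RefSeq start at chr2:240896157-240896406 on the minus strand of GRCh38.p14, is shown because it holds a match to the AP-1 letters TGANTCA and one to CCAAT, both in capitals.
C2orf54: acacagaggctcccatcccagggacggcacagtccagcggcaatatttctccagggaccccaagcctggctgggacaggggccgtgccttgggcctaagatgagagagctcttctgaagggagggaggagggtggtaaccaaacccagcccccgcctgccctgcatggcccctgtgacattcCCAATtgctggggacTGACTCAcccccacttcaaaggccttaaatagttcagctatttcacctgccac

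Of the 40 members, 27 had a RefSeq promoter of 250 bases before to 50 bases after a start, some with several starts, which gave 38 promoters for 19 of the genes higher in Ishikawa cells and 12 promoters for 8 of the others. On either strand, none of the 50 held the estrogen response element, GGTCANNNTGACC, which 0.057% of the 35116 promoters in the table held. The single extended site AGGTCA, whose last letters are also the first letters of that element, was in 6 of the 38 promoters and 1 of the 12, against 13.8% of all promoters. The genes were DHRS3, LPAR1, RHOBTB1, SEMA3F and VASN, and in the other class RPS6KL1. The AP-1 letters were in 2 of 38 and 0 of 12 against 7.71%, CCAAT in 16 and 4 against 34.6%, and the GC box GGGGCGGGG in 10 and 4 against 15.7%. Of the other letters searched, the cyclic AMP element TGACGTCA was in none against 1.85%, the E-box CACGTG in 2 and 0 against 7.26%, and the E2F letters TTTCCCGC or TTTGGCGC in 1 and 1 against 2.27%. The median GC content was 68.3% in the 38 promoters and 63.2% in the 12, against 58.7% over all. A match is only a run of letters, and a gap says nothing about binding elsewhere. The windows below show the letters AGGTCA, or its reverse complement TGACCT, in capitals with 10 bases on each side, on the strand of the gene, beside one RefSeq start each. Matches of LPAR1 and RPS6KL1 are not shown. LPAR1 was below 0 h at 2 h in T-47D cells, and RPS6KL1 also has a pair in the same promoter. Whether a match goes with the time course was not tested. The windows cover DHRS3, VASN and SEMA3F, which were above 0 h at 2 h in both lines, and RHOBTB1, which has a pair. The positions are chr1:12596769-12596794, chr16:4371666-4371691, chr3:50158943-50158968, chr10:61001215-61001240 and chr10:61001196-61001221 of GRCh38.p14, in that order.
DHRS3: cttgcactttTGACCTtccccacacc
VASN: ctccccgcgcAGGTCAggtggccgca
SEMA3F: tctgcctgtcTGACCTgggtctctcc
RHOBTB1: gaaaggagggTGACCTggttaccttt
RHOBTB1: tacctttcgcTGACCTcctcacagct

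Several members encode receptors and other proteins of the cell surface. IL4R, the interleukin-4 receptor alpha chain, was at 18.0 and 21.4 CPM before E2 in Ishikawa cells, 33.4 and 34.4 after 2 h, 46.7 and 42.4 after 4 h, and 40.8 and 47.1 after 8 h. In T-47D cells IL4R was at 48.1 and 49.8 CPM before E2, 42.2 and 42.5 after 2 h, 35.2 and 33.7 after 4 h, and 30.1 and 30.4 after 8 h. The lines started more than 2-fold apart and had changed places by 4 h. LPAR1, a receptor for lysophosphatidic acid, was at 6.77 and 7.01 CPM before E2 and 11.4 and 10.7 after 8 h in Ishikawa cells, and at 23.5 and 19.0 CPM before E2 and 14.7 to 15.8 CPM in every later T-47D library. GPRC5C, an orphan G protein-coupled receptor, was at 2.10 and 3.33 CPM before E2 and 6.79 and 5.56 after 8 h in Ishikawa cells, against 84.7 and 81.6 and then 57.5 and 53.0 CPM in T-47D cells. PLXDC2, a transmembrane plexin-domain protein, was at 66.9 and 57.8 CPM before E2 and 81.4 and 109 after 8 h in Ishikawa cells, and at 31.3 and 28.0 and then 21.6 and 20.5 CPM in T-47D cells. TP53I11 was at 12.0 and 15.3 CPM before E2 and 25.9 and 24.0 after 8 h in Ishikawa cells, and at 185 and 185 and then 115 and 105 CPM in T-47D cells. For GPRC5C and TP53I11 the T-47D level stayed above the Ishikawa level at every time point.

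VASN, a membrane protein that binds TGF-beta, was at 144 and 146 CPM before E2 in Ishikawa cells, 228 and 222 after 2 h, 209 and 197 after 4 h, and 195 and 209.6 after 8 h. In T-47D cells VASN was at 24.7 and 23.9 CPM before E2, 31.7 and 32.8 after 2 h, 12.4 and 13.4 after 4 h, and 11.5 and 9.89 after 8 h. TMPRSS2, a transmembrane serine protease, was at 6.02 and 6.42 CPM before E2 in Ishikawa cells, 10.3 and 11.4 after 2 h, 9.01 and 8.14 after 4 h, and 9.37 and 7.98 after 8 h. TMPRSS2 in T-47D cells was at 5.55 and 5.65 CPM before E2, 11.5 and 10.6 after 2 h, 4.80 and 4.26 after 4 h, and 3.85 and 3.29 after 8 h. Both genes were above 0 h at 2 h in both lines and then parted, since the T-47D libraries of 4 h and 8 h lay below 0 h while the Ishikawa libraries stayed above it. LFNG, the glycosyltransferase that modifies Notch receptors, was at 19.9 and 22.1 CPM before E2 and 33.2 and 29.7 after 8 h in Ishikawa cells, and at 10.0 and 8.95 and then 7.49 and 6.28 CPM in T-47D cells. ST3GAL1, a sialyltransferase of O-glycans, was at 1.49 and 1.69 CPM before E2 and 2.73 and 2.38 after 8 h in Ishikawa cells, and at 93.6 and 87.0 and then 51.3 and 51.2 CPM in T-47D cells. Its Ishikawa levels at 2 h, 1.35 and 1.58 CPM, overlapped those of 0 h.

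The transcription factors and coregulators were CEBPD, KLF4, ELF3, HES2 and BCL3. ELF3, an epithelial ETS factor, was at 95.5 and 94.4 CPM before E2 in Ishikawa cells, 229 and 221 after 2 h, 118 and 144 after 4 h, and 145 and 112 after 8 h. In T-47D cells ELF3 was at 62.0 and 65.2 CPM before E2, 60.4 and 63.0 after 2 h, 34.7 and 36.6 after 4 h, and 36.0 and 35.9 after 8 h. BCL3, an atypical IκB protein that binds NF-κB p50 and p52, was at 5.87 and 6.88 CPM before E2 in Ishikawa cells, 19.2 and 18.4 after 2 h, 9.01 and 9.67 after 4 h, and 8.74 and 11.2 after 8 h. BCL3 in T-47D cells was at 20.9 and 22.2 CPM before E2, 20.7 and 22.3 after 2 h, 13.4 and 15.2 after 4 h, and 15.9 and 14.5 after 8 h. For both genes the Ishikawa maximum came at 2 h, a time at which the T-47D libraries overlapped 0 h. CEBPD, a C/EBP family factor, was at 9.55 and 9.79 CPM before E2 and between 18.6 and 21.2 CPM in all later Ishikawa libraries, and at 15.6 and 16.1 and then between 9.20 and 10.9 CPM in T-47D cells. KLF4, a zinc finger factor, was at 2.98 and 2.78 CPM before E2 and 4.45 and 4.75 after 8 h in Ishikawa cells, and at 13.9 and 13.4 and then 10.3 and 9.21 CPM in T-47D cells. HES2, a basic helix-loop-helix repressor, was at 56.8 and 61.6 CPM before E2 and 201 to 246 CPM in all later Ishikawa libraries, but at only 2.45 and 2.33 CPM before E2 and 1.99 and 1.31 CPM after 8 h in T-47D cells.

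Small GTPases and proteins of cell shape and guidance made up a further group. RHOBTB1, an atypical small GTPase, was at 8.10 and 8.34 CPM before E2 in Ishikawa cells, 11.1 and 12.2 after 2 h, 15.98 and 19.0 after 4 h, and 18.1 and 19.4 after 8 h. In T-47D cells RHOBTB1 was at 14.5 and 15.7 CPM before E2, 14.5 and 12.7 after 2 h, 10.8 and 10.6 after 4 h, and 9.47 and 9.59 after 8 h, and the lines had changed places by 4 h. ARHGAP26, a GTPase-activating protein, was at 15.0 and 15.3 CPM before E2 and 33.3 and 27.0 after 8 h in Ishikawa cells, while in T-47D cells it lay between 10.4 and 12.4 CPM through 4 h and at 7.81 and 8.28 CPM after 8 h. PALM, a lipid-anchored protein of the plasma membrane, was at 33.9 and 34.2 CPM before E2 and 50.1 and 49.1 after 8 h in Ishikawa cells, and at 7.24 and 7.64 and then 5.46 and 4.93 CPM in T-47D cells. SEMA3F, a secreted semaphorin, was at 73.9 and 81.4 CPM before E2 and 111 and 102 after 8 h in Ishikawa cells, and at 136 and 138 and then 105 and 103 CPM in T-47D cells. At 8 h the libraries of both lines overlapped.

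FAM43A, whose function is not well known, had a sharp maximum in Ishikawa cells, at 17.9 and 19.1 CPM before E2, 110.1 and 108 after 2 h, 50.5 and 60.0 after 4 h, and 60.8 and 45.8 after 8 h. In T-47D cells FAM43A was at 19.2 and 18.0 CPM before E2, 16.2 and 18.4 after 2 h, 13.7 and 12.3 after 4 h, and 10.5 and 9.47 after 8 h. The lines overlapped at 0 h and were apart at every later time. CRISPLD1, SAMD11 and GRAMD2, now named GRAMD2A, complete the class, with 8 h changes of 0.46, 1.17 and 0.55 in Ishikawa cells and of -0.71, -0.46 and -0.54 in T-47D cells. GRAMD2 had widely spaced replicates in Ishikawa cells, at 1.43 and 3.65 CPM after 4 h.

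**Figure D2:**
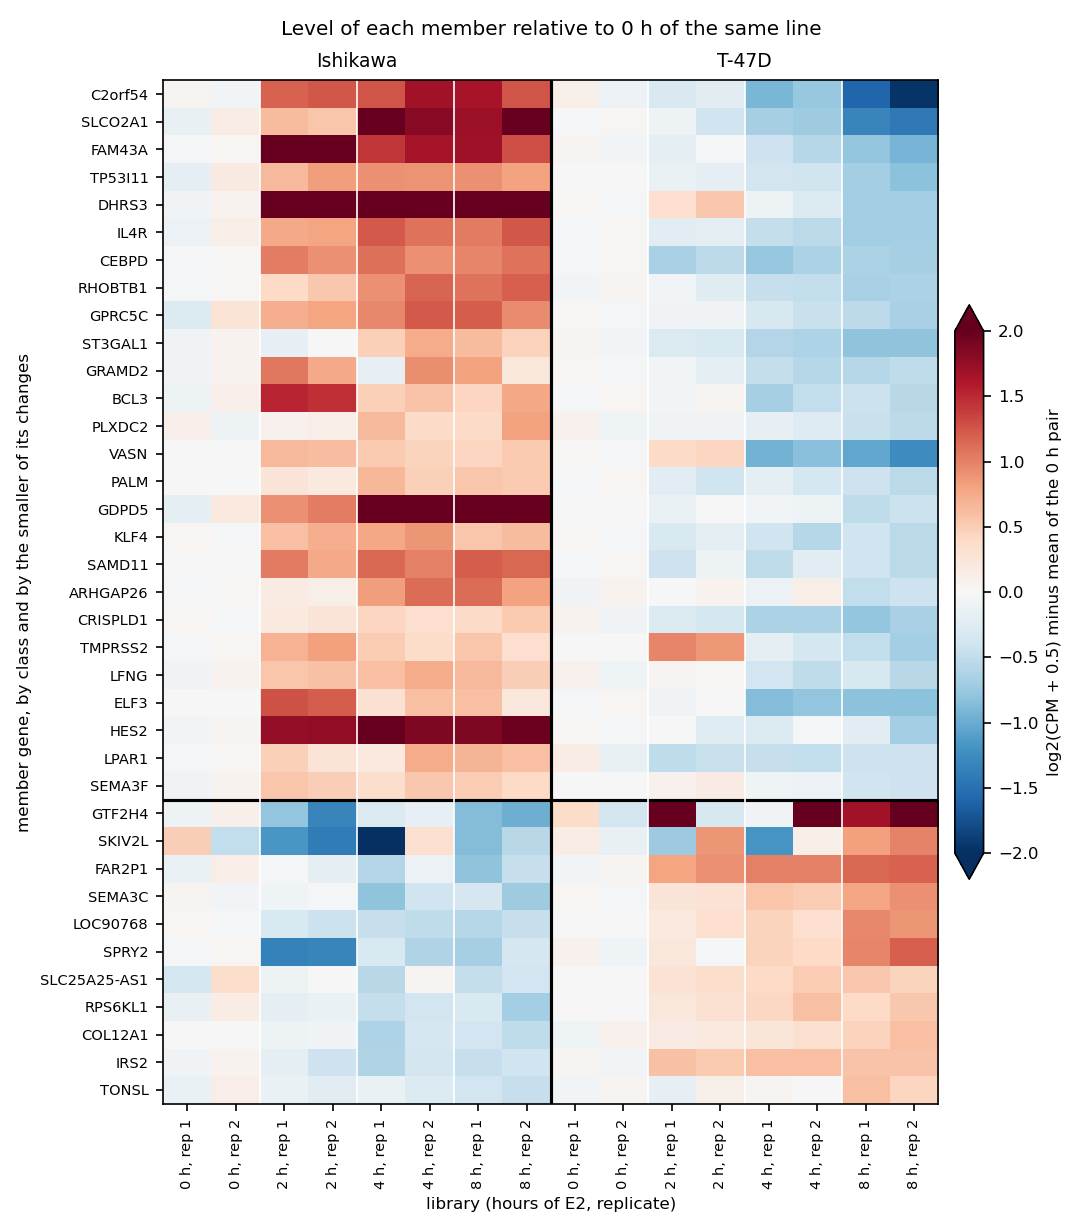
Each of 37 members (row) in each of the 16 libraries (column), as log2(CPM + 0.5) minus the mean of the 0 h pair of the same line; red is above and blue below 0 h, and colors stop at 2 and -2. The upper block holds 26 genes higher in Ishikawa cells at 8 h and the lower block 11 genes lower in Ishikawa cells, and most of the upper block was already red at 2 h in Ishikawa cells while the T-47D columns turned blue at 4 h; GTF2H4 and SKIV2L differ between replicates.

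The 13 genes that were lower in Ishikawa cells and higher in T-47D cells included another semaphorin. SEMA3C, a secreted class 3 semaphorin, was at 247.5 and 227 CPM before E2 in Ishikawa cells, 222 and 233 after 2 h, 136 and 180.1 after 4 h, and 188 and 145 after 8 h. In T-47D cells SEMA3C was at 424 and 400.5 CPM before E2, 494.5 and 505 after 2 h, 603 and 586 after 4 h, and 713 and 774 after 8 h, with each time point above the one before. SPRY2, which encodes an inducible inhibitor of receptor tyrosine kinase to MAPK signaling, was at 32.3 and 33.8 CPM before E2 in Ishikawa cells, 12.7 and 12.9 after 2 h, 26.8 and 21.7 after 4 h, and 20.7 and 26.1 after 8 h. SPRY2 in T-47D cells was at 2.07 and 1.77 CPM before E2, 2.32 and 1.85 after 2 h, 2.77 and 2.67 after 4 h, and 4.26 and 5.01 after 8 h. Its Ishikawa minimum came at 2 h and its T-47D maximum at 8 h. COL12A1, a fibril-associated collagen chain, was at 372 and 369 CPM before E2 and 284 and 259.9 after 8 h in Ishikawa cells, and at 264.5 and 299 and then 385 and 425.5 CPM in T-47D cells, so that the line with the higher level was Ishikawa at first and T-47D at 8 h. IRS2, the adaptor of insulin and IGF receptors, was at 23.6 and 25.8 CPM before E2 and 17.8 and 18.7 after 8 h in Ishikawa cells, and at 3.19 and 2.96 and then 4.80 and 4.83 CPM in T-47D cells.

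Of the others, TONSL, which acts in the repair of stalled replication forks, was at 42.3 and 51.1 CPM before E2 and 35.6 and 33.7 after 8 h in Ishikawa cells, and at 31.0 and 33.5 and then 49.4 and 43.5 CPM in T-47D cells. LOC90768, a locus with no symbol, was at 81.1 and 77.6 CPM and then 53.5 and 57.5 CPM in Ishikawa cells, and at 4.16 and 4.15 and then 8.53 and 8.06 CPM in T-47D cells. RPS6KL1, SLC25A25-AS1 and FAR2P1 had 8 h changes of -0.48, -0.47 and -0.62 in Ishikawa cells and of 0.47, 0.49 and 1.16 in T-47D cells. FAR2P1 is a transcribed pseudogene, and its reads may come in part from its parent gene or other copies, so its value is uncertain. SLC25A25-AS1 is an antisense RNA that overlaps SLC25A25, and since the sources used here do not say whether the counting used strand, the reads of both cannot be told apart. The same holds for TMPRSS2 with MX1, VASN with CORO7, TP53I11 with TSPAN18, SAMD11 with NOC2L, SKIV2L with DXO, RHOBTB1 with LINC00845, FAR2P1 with KLF2P1, LPAR1 with small RNA genes, and ARHGAP26, ELF3, SEMA3F and TONSL with their own antisense genes. It also holds for IL4R, ST3GAL1, PLXDC2, KLF4, CRISPLD1 and IRS2 with genes that have no symbol. Each of these overlaps its partner on the opposite strand in the GENCODE annotation on GRCh37.

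GTF2H4, a subunit of the transcription and repair factor TFIIH, and SKIV2L, an RNA helicase of the Ski complex now named SKIC2, headed the class by the smaller of the changes in the lines but had the least even replicates. Both lie in the major histocompatibility complex region of chromosome 6, GTF2H4 at chr6:30875984-30881883 and SKIV2L at chr6:31926893-31937595, both on the plus strand of GRCh37. GTF2H4 in T-47D cells was at 1.03 and 0.412 CPM before E2, 4.66 and 0.446 after 2 h, 0.624 and 4.92 after 4 h, and 3.31 and 4.85 after 8 h. SKIV2L in Ishikawa cells was at 5.30 and 2.41 CPM before E2, 1.33 and 1.05 after 2 h, 0.486 and 4.62 after 4 h, and 1.75 and 2.31 after 8 h. The largest gap between replicates was 2.45 on the log2 scale for GTF2H4 and 2.38 for SKIV2L, against a median of 0.188 and a 95th percentile of 0.479 over the genes that reached the floor. The lowest count of any member was 17, for GTF2H4 in T-47D cells at 0 h, and 9 members had some count under 100. Without both genes the class held 11 members.

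Just inside the limits, SEMA3F had changes of 0.45 and -0.40 and LPAR1 of 0.64 and -0.42, in Ishikawa and T-47D cells in that order, and in the other class TONSL had -0.43 and 0.52. Just outside were EGLN3 with 0.39 and -1.25 and CEBPA with 0.39 and -0.62, and ARTN with -0.39 and 1.03 and C1QTNF6 with -0.43 and 0.38. KIFC1 and RPS18 passed both limits of size but had overlapping replicates. Leaving out a library moved the number of the 13 more than that of the 27. It also left a single replicate in that group, so the criterion of no overlap was easier to meet. The smaller class held 28 genes without T-47D 0 h replicate 2 and 24 without Ishikawa 0 h replicate 1, in both cases with 12 of the 13 among them, and 9 without Ishikawa 0 h replicate 2. The larger class held between 24 and 33 genes.

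The 2 h values share the 0 h libraries with the choice and are also a description. Among the 27 genes, 25 had both 2 h libraries above both 0 h libraries in Ishikawa cells, against 26.1% of the genes that reached the floor, and ST3GAL1 and PLXDC2 were the exceptions. In T-47D cells 14 of the 27 had both 2 h libraries below both 0 h libraries, against 28.3%, and 4 had both above, against 28.6%. These 4 were DHRS3, VASN, TMPRSS2 and SEMA3F, whose levels in T-47D cells were first above and by 8 h below those of 0 h. In the median over the 27 genes, 80.5% of the 8 h change on the log2 scale was present at 2 h and 101% at 4 h in Ishikawa cells, but 17.6% at 2 h and 73.3% at 4 h in T-47D cells. The mean farthest from 0 h was at 2 h for 7 genes, at 4 h for 14 and at 8 h for 6 in Ishikawa cells, and at 8 h for 21 of the 27 in T-47D cells.

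Among the 13 genes of the other class, 7 had both 2 h libraries below both 0 h libraries in Ishikawa cells, against 27.2%, and 8 had both above in T-47D cells, against 28.6%. Among the 7 were GTF2H4, SKIV2L, LOC90768, SPRY2, COL12A1 and IRS2. In the median, 35.5% of the 8 h change was present at 2 h in the Ishikawa and 34.8% in the T-47D libraries. By 4 h these medians were 90.6% and 62.0%. In T-47D cells 11 of the 13 were farthest from 0 h at 8 h, whereas SPRY2 in Ishikawa cells had its largest departure at 2 h.

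**Figure D3:**
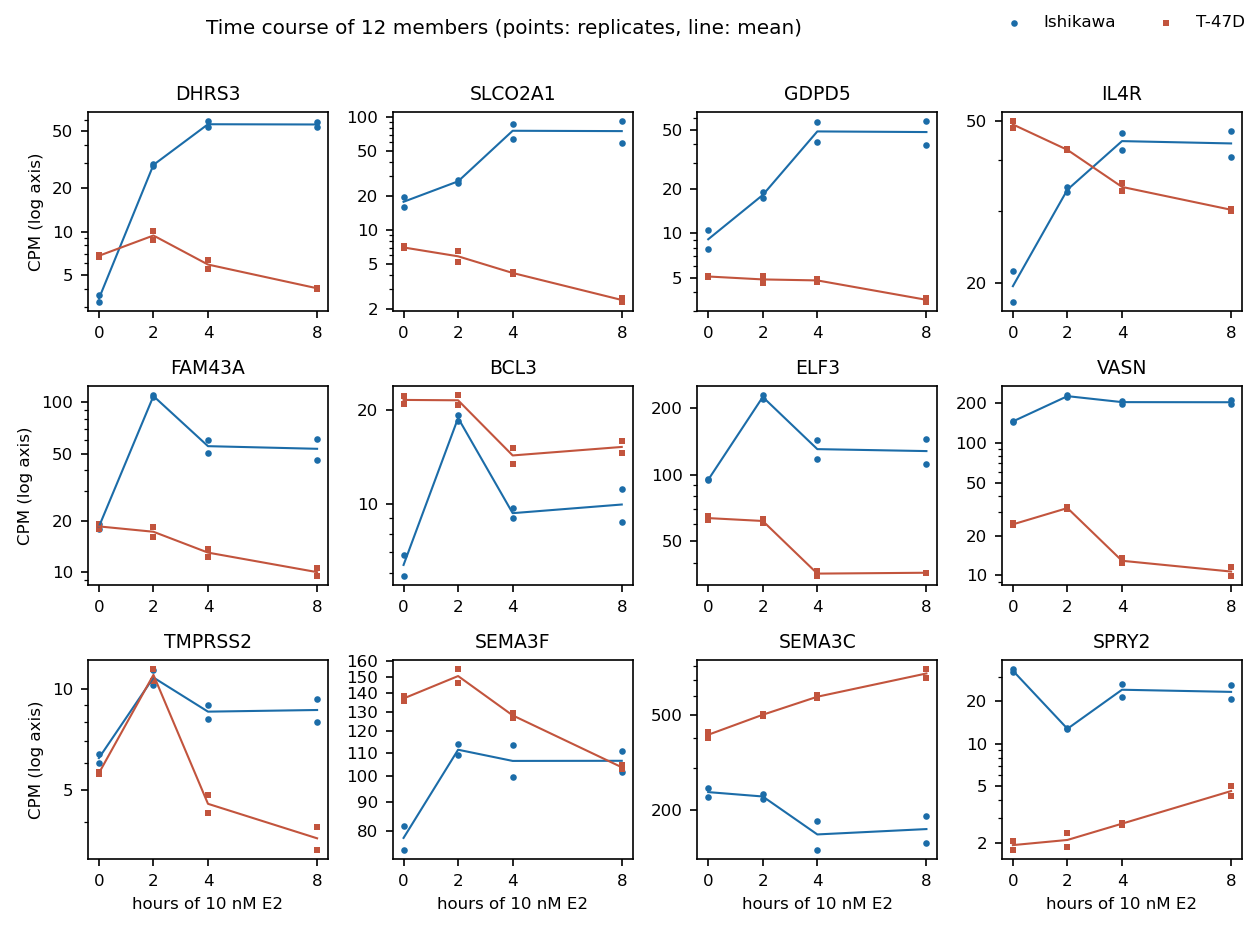
CPM (log axis) of 12 members against hours of E2, in Ishikawa cells (blue circles) and T-47D cells (red squares); points are the 2 replicates and lines join their means. FAM43A, BCL3 and ELF3 peaked at 2 h in Ishikawa cells, VASN, TMPRSS2 and SEMA3F were above 0 h at 2 h in both lines, and IL4R and DHRS3 show lines that cross.

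The change from 2 h to 4 h was tested because those libraries did not enter the 8 h change or the test of overlap. The fit took its spread from all 8 libraries of a line, however, those of 0 h and 8 h included. Genes chosen by their 8 h level may also differ from other genes at 4 h. The shares over all genes are therefore given as a background, and the counts are not independent of the choice. In T-47D cells, 15 of the 27 genes fell from 2 h to 4 h at an adjusted p of 0.05 by edgeR's quasi-likelihood test, against 1.46% of the 15594 genes tested, and 0 rose, against 1.94%. The count of 0 was the same at an unadjusted p of 0.05, where 1235 of the 15594 genes rose, and with DESeq2. Among 27 genes a count of 0 is near these shares and is not read as a result. The largest falls were in VASN, with a log2 fold change of -1.32 ± 0.08 (SE) and an adjusted p of 2.5e-08, TMPRSS2 with -1.29 ± 0.12 and 5.2e-06, and ELF3 with -0.79 ± 0.06 and 6.6e-08. DHRS3 fell by 0.67 ± 0.12 (adjusted p = 0.0033), BCL3 by 0.59 ± 0.09 (0.00054), GPRC5C by 0.32 ± 0.06 (0.0021) and ST3GAL1 by 0.31 ± 0.05 (0.0015). The others that fell were C2orf54, FAM43A, TP53I11, IL4R, GRAMD2, CRISPLD1, LFNG and SEMA3F, with log2 fold changes between -0.64 and -0.23. RHOBTB1 and SLCO2A1 did not pass, at -0.35 ± 0.09 (adjusted p = 0.051) and -0.49 ± 0.14 (0.067). The fitted change was below 0 in 24 of the 27 genes, and its median was -0.31 against 0.00 over all genes tested.

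Of the 13 genes in T-47D cells, SEMA3C alone rose by edgeR's test, by 0.25 ± 0.04 (adjusted p = 0.0023), against 1.94% of all genes tested. None fell at an adjusted p of 0.05, against 1.46%, at an unadjusted p of 0.05, against 984 of 15594 genes, or with DESeq2. Among 13 genes this absence of falls is near these shares and is not read as a result. The fitted change was above 0 in 12 of the 13, with a median of 0.14. SPRY2 was at 0.38 ± 0.18 (adjusted p = 0.36). Without T-47D 4 h replicate 2, 7 of all 40 members passed in place of 16, and the number was 9 without 2 h replicate 1, 8 without 2 h replicate 2 and 11 without 4 h replicate 1. ST3GAL1, BCL3, VASN, TMPRSS2 and ELF3 passed in each of the 11 alternatives at an adjusted p of 0.05 or above, the leave-one-out fits among them.

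In Ishikawa cells, 7 of the 27 genes rose from 2 h to 4 h, against 1.18% of the 15787 genes tested, and 3 fell, against 1.21%. SLCO2A1 rose by 1.52 ± 0.18 (adjusted p = 0.00025), GDPD5 by 1.45 ± 0.17 (0.00025), DHRS3 by 0.97 ± 0.08 (2.1e-05) and ARHGAP26 by 0.88 ± 0.11 (0.00034). RHOBTB1, IL4R and PALM rose by 0.61 ± 0.11, 0.42 ± 0.10 and 0.38 ± 0.08. The 3 genes that fell were among the 7 with a maximum at 2 h. Their log2 fold changes were -0.99 ± 0.13 for BCL3, -0.96 ± 0.10 for FAM43A and -0.76 ± 0.10 for ELF3. ST3GAL1 was at 0.90 ± 0.23 and did not pass (adjusted p = 0.0503). Of the 13 genes, SEMA3C fell by 0.50 ± 0.11 (adjusted p = 0.026) and COL12A1 by 0.36 ± 0.07 (0.014), while SPRY2 rose by 0.95 ± 0.12 (0.00061) and GTF2H4 by 0.95 ± 0.20 (0.019) after their low 2 h values. The fitted change was above 0 in 20 of the 27 genes and below 0 in 10 of the 13, with medians of 0.21 and -0.16 against -0.01 over all genes tested.

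The Ishikawa calls also rested on single libraries. All told 14 of the 40 members passed, and 9 passed without 2 h replicate 1 and 9 without 2 h replicate 2, 10 without 4 h replicate 1 and 18 without 4 h replicate 2. SLCO2A1, FAM43A, DHRS3, BCL3, GDPD5, ARHGAP26, ELF3 and SPRY2 passed in each of the 11 alternatives at an adjusted p of 0.05 or above, while IL4R, RHOBTB1, PALM, GTF2H4, SEMA3C and COL12A1 did not pass in at least 1 of them.

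For 27 of the 40 members, the 2 h to 4 h change had the sign of the 8 h change in both lines. This count and those that follow were not made over all genes tested, so they have no background share. DHRS3, IL4R and SEMA3C passed the test in both lines with opposite signs, and BCL3, ELF3 and FAM43A passed in both with the same sign, falling in each. A further 8 passed in Ishikawa cells alone and 10 in T-47D cells alone, and 16 in neither, among them CEBPD, KLF4 and HES2.

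**Figure D4:**
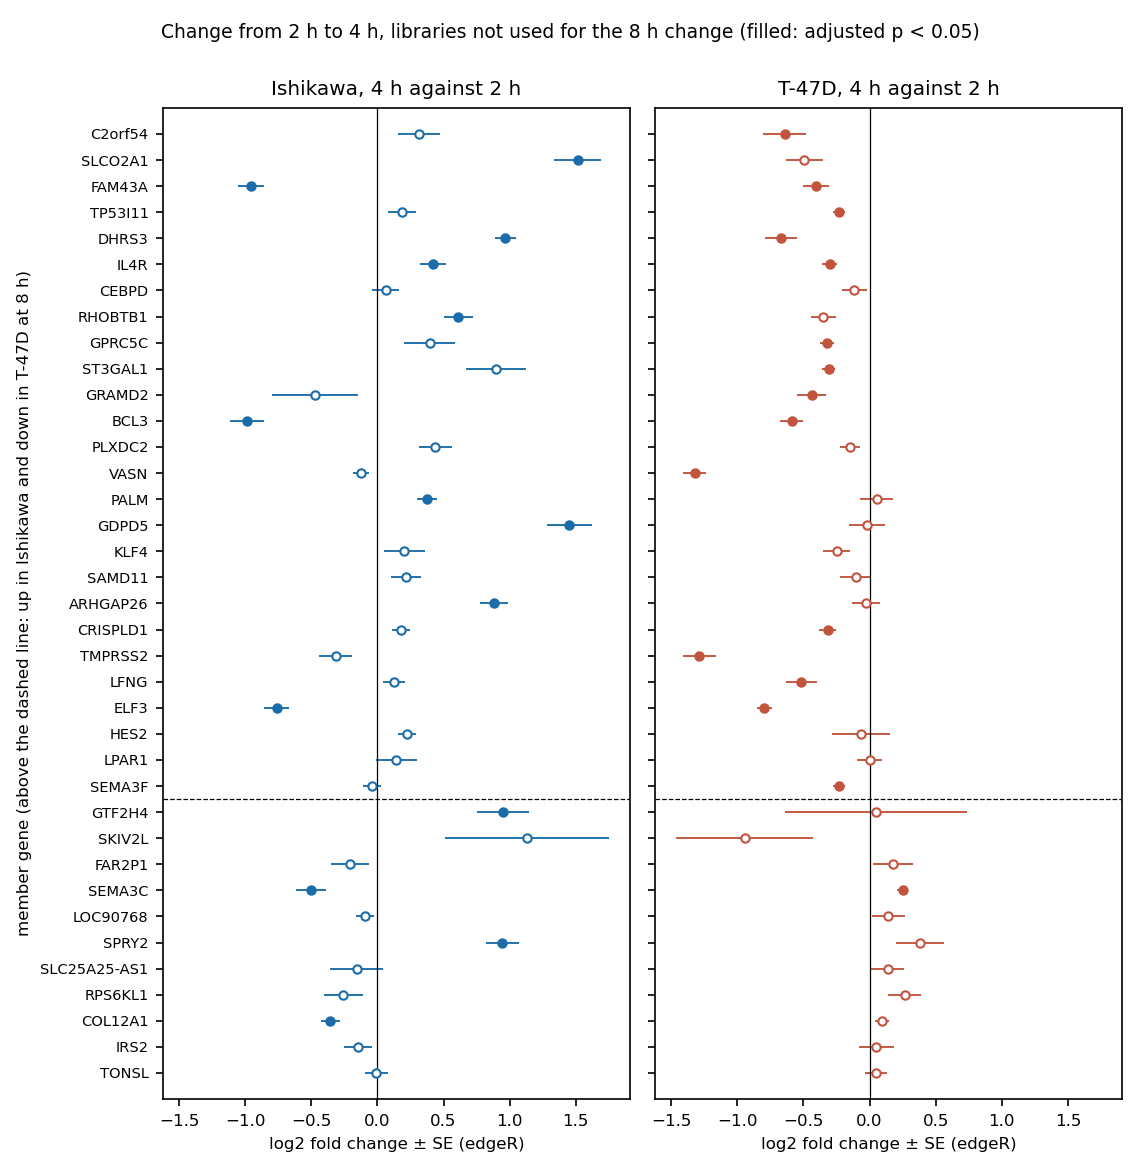
Log2 fold change from 2 h to 4 h of each of 37 members in Ishikawa cells (left) and T-47D cells (right), with standard errors from edgeR; filled points passed an adjusted p of 0.05 and the dashed line separates 26 genes higher in Ishikawa cells at 8 h (above) from 11 lower ones. The points of the upper group lie left of 0 for 24 of 26 genes in T-47D cells and right of 0 for 19 of 26 in Ishikawa cells, where FAM43A, BCL3 and ELF3 are filled on the left.

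The difference between the lines in the 2 h to 4 h change, T-47D minus Ishikawa, was tested as an interaction over all 16 libraries. It passed for 15 of the 40 members, against 0.942% of the 17090 genes tested, for 12 of the 27 with a negative sign and for 3 of the 13 with a positive sign. The largest were SLCO2A1 at -2.01 ± 0.27 (adjusted p = 0.00038), DHRS3 at -1.64 ± 0.14 (1.7e-06), GDPD5 at -1.47 ± 0.25 (0.0037), VASN at -1.20 ± 0.09 (1.2e-06) and ST3GAL1 at -1.20 ± 0.16 (0.00028). RHOBTB1, TMPRSS2, ARHGAP26, IL4R, GPRC5C, LFNG and CRISPLD1 passed between -0.97 and -0.50. Among the 3 genes with a positive sign were SEMA3C at 0.75 ± 0.14 (adjusted p = 0.0071) and COL12A1 at 0.45 ± 0.10 (0.031). None of the 27 passed with a positive sign, against 0.398% of all genes tested, and 1 did with DESeq2. At an unadjusted p of 0.05 there were 2, FAM43A and BCL3, against 950 of the 17090 genes. Of the 13, 0 passed with a negative sign, against 0.544%, also with DESeq2. SPRY2 alone passed at an unadjusted p of 0.05, against 818 of the 17090 genes. These low counts are near the shares and are not read as a result.

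The interaction passed for 9 members without Ishikawa 2 h replicate 1, 2 h replicate 2 or 4 h replicate 1 and for 9 without T-47D 4 h replicate 1 or 4 h replicate 2, for 8 without T-47D 2 h replicate 1, for 11 without T-47D 2 h replicate 2 and for 15 without Ishikawa 4 h replicate 2. SLCO2A1, DHRS3, IL4R, RHOBTB1, ST3GAL1, VASN and GDPD5 passed in each of the 15 alternatives at an adjusted p of 0.05 or above. ELF3, at -0.04 ± 0.12 (adjusted p = 0.98), had nearly the same fall from 2 h to 4 h in both lines.

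The members did not share an order of level between the lines. Over the 2 h and 4 h libraries, 35 of the 40 differed in level between T-47D and Ishikawa cells by edgeR's quasi-likelihood test, against 87.4% of all genes tested, a share close to the background. Of these, 13 were higher in T-47D cells and 22 higher in Ishikawa cells. Among the 27, ST3GAL1 and GPRC5C were 5.11 ± 0.07 and 3.76 ± 0.08 higher on the log2 scale in T-47D cells, and HES2, VASN and SLCO2A1 were at -6.59 ± 0.08, -3.32 ± 0.05 and -3.12 ± 0.13 there relative to Ishikawa cells. IL4R, at 0.05 ± 0.06 (adjusted p = 0.43), and SAMD11, at 0.04 ± 0.09 (0.71), did not pass, nor did RPS6KL1, GTF2H4 and SKIV2L. Among the 13, SEMA3C was 1.60 ± 0.07 higher in T-47D cells, while LOC90768 and SPRY2 were at -3.39 ± 0.06 and -2.81 ± 0.11.

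Gene lists drawn up for estrogen-treated epithelial cells, 27 with 848 genes in all, held 10 members. Not all listed genes reached the floor, so the 848 are no background for the 10. Whether the lists held more members than other genes was not tested. KLF4 was the 1 member among 15 immediate-early genes that reached the floor, SPRY2 among 11 genes of MAPK feedback, ELF3 among 16 lineage transcription factors, IRS2 among 9 genes of IGF and insulin signaling, LFNG among 11 genes of Notch signaling, and COL12A1 among 31 genes of the extracellular matrix and cytoskeleton. SEMA3C and SEMA3F, 1 from each class, were the members among 21 axon guidance genes, and GTF2H4 and SKIV2L those among 35 genes of the major histocompatibility complex region. No member stood among the 49 DNA replication genes, whose median 8 h change was -0.07 in Ishikawa against 0.36 in T-47D cells, or among the 22 classical estrogen targets, with medians of 0.54 and 1.00. Several other lists also held no member. The classes made up 0.243% and 0.117% of the genes that reached the floor. An absence from lists of this size is near that share and is not read as a result. The other 30 members were on no list.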

How the data were processed

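Bulk RNA-seq counts of 16 libraries were analyzed. Per the labels and the methods, the authors used HISAT2 on hg19, then SAMtools, and assigned reads to UCSC genes with featureCounts; the deposited counts are raw, in 1 table per cell line. Versions and strand setting are not given in the sources used here. Columns were matched to samples by their titles. The members and gene lists were chosen with earlier results of these data known.

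The deposited counts were tested with edgeR 4.0.16 in R 4.3.3, on genes kept by filterByExpr, with TMM scaling, time as a factor of 4 levels per line (8 groups for comparisons between lines), and Benjamini-Hochberg adjusted p under 0.05. Standard errors are the log2 fold change over the square root of F. DESeq2 1.42.0, RLE scaling, other filters and thresholds, a replicate block and leaving out libraries were alternatives; leaving out the major histocompatibility complex members was chosen after seeing the data. The script was tested on simulated data.

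Named genes are, per class, the 10 members with the largest value for the smaller change, members on a list, the 5 with the smallest p in each 2 h to 4 h test, and the genes beside the limits; this named 20 and 12 members. The other members were named to account for the set, except 3 that are counted but not reported here. Positions came from GENCODE on GRCh37 for 39 of the 40, and promoters from RefSeq on GRCh38.p14, which matched 27.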

Additional observations from a re-analysis of the deposited data

Results flagged for a closer look

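For 15 members, edgeR's interaction test found that the lines differed in the 2 h to 4 h change (adjusted p under 0.05). The values given, for 14 of them, are log2 fold changes in T-47D cells minus those in Ishikawa cells. The difference was -2.01 for SLCO2A1, -1.64 for DHRS3, -1.47 for GDPD5, -1.20 for VASN, -1.20 for ST3GAL1, -0.97 for TMPRSS2, -0.96 for RHOBTB1, -0.91 for ARHGAP26, -0.73 for IL4R, -0.72 for GPRC5C, -0.65 for LFNG and -0.50 for CRISPLD1. It was 0.75 for SEMA3C and 0.45 for COL12A1. In DHRS3, IL4R and SEMA3C each line also passed on its own with opposite signs. VASN fell by 1.32 in T-47D cells and was at -0.12 in Ishikawa cells, whereas GDPD5 rose by 1.45 in Ishikawa cells and was at -0.02 in T-47D cells. TMPRSS2 fell by 1.29 in T-47D cells and was at -0.32 in Ishikawa cells, so that its fitted signs were the same.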

How the results depend on the processing

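The number of members followed the limits of the rule. With a limit of 0.3 the classes held 63 and 46 genes, and with 0.5 they held 12 and 5. The smaller class held 7 genes with a floor of 5 CPM and 8 with the 4 h libraries in place of 8 h in both lines. Leaving out a library left a single replicate in its group, which made the criterion of no overlap easier to meet. With libraries left out in turn, the larger class ranged from 24 to 33 and the smaller from 9 to 28, with 28 reached without T-47D 0 h replicate 2 and 24 without Ishikawa 0 h replicate 1.

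Of 14 members that passed from 2 h to 4 h in Ishikawa cells, 9 passed at an adjusted p of 0.01. With libraries left out in turn, the number that passed ranged from 9 to 18 in Ishikawa cells, from 7 to 11 in T-47D cells, from 8 to 15 for the interaction and from 34 to 36 for the level. With no filter on low counts it was 20, 19, 21 and 36. With the replicate number as a block, 14, 15, 13 and 34 members passed, against 14, 16, 15 and 35 without it. No pairing by replicate number was seen, as deviations of same-numbered replicates correlated by -0.11 to 0.053 in Ishikawa and by -0.055 to 0.0595 in T-47D cells. The lowest value of each line was between 4 h and 8 h. These correlations ran over all genes tested, low counts among them, so they cannot exclude pairing. A tally of single members covered those that passed in the main fit, so members that passed only under an alternative were not counted. It included a looser threshold, which cannot lose a call. Of its 600 values, 494 still passed, 106 no longer passed and 0 turned direction. The cause of these losses was not tested. Intervals of the fold changes rest on 2 replicates a group, and in members with under 100 counts in a library, such as GTF2H4, the depth limits what can be seen.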
